A study of Mus musculus with 48 samples.

Results

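The comparison described here set 8 Brd1+/- mice against 8 wild-type (WT) mice that had all received imipramine (IMN), a tricyclic antidepressant, at 10 mg/kg. The members are the 16 libraries named for these groups, out of 48 in the whole series. All mice were females aged 8 to 11 weeks whose strain the labels give as C57BL/6NTac-Brd1 for both genotypes (the mutant line is C57BL/6NTac-Brd1tm1.2Arte/AborgMmucd, with litter-matched WT mice), and RNA was read from punches of the right amygdala taken 1 h after a forced swim. The other 32 libraries came from both genotypes given vehicle (saline) or fluoxetine (FLX, 5 mg/kg), 8 to a group, and serve here only as a reference for the genes that differed. Brd1+/- mice carry 1 copy of Brd1 from which internal exons are deleted in the whole body, so the model is neither specific to the amygdala nor to a cell type. Dosing was short: the paper describes an injection before a tail suspension test on the first day. Another followed on the next day, 1 h before an open field test and the forced swim. The question was which transcripts separate the genotypes when both are under imipramine.

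BRD1 is a scaffold protein that joins histone acetyltransferases such as KAT7 to chromatin. Imipramine blocks the reuptake of noradrenaline and serotonin and binds several monoamine and acetylcholine receptors. The mitochondrial genome is copied into long transcripts of each strand, from which tRNAs, rRNAs and mRNAs are cut apart, the tRNAs often standing as punctuation between the mRNAs.

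Levels are in TPM, in which a gene's signal is scaled for its length and for the library's total, so the read depth of each library is unknown. The paper gives only a minimum number of clean reads per sample. Between 23420 and 26549 genes were above 0 in the 16 libraries, and mitochondrial genes took 10.1% to 18.9% of TPM. Differences are given on the log2(TPM + 0.1) scale as Brd1+/- minus WT, which understates changes of low genes. No label used here gives the order of extraction or library preparation.

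The genotype was visible in Brd1 itself (chr15:88687034-88734233, minus strand, GRCm38, protein-coding). Brd1 ranged from 31.9 to 41.0 TPM with a median of 37.3 in WT IMN mice. In Brd1+/- IMN mice it ranged from 16.6 to 29.5 TPM with a median of 22.8, so that every Brd1+/- library lay below every WT library. The mean decreased by 36.6%, from 36.9 ± 2.83 TPM (SD, n = 8) to 23.4 ± 4.84 TPM (SD, n = 8). The log2 difference was -0.68 (95% interval -0.93 to -0.43), with a two-sided exact permutation p = 0.000155, the smallest p that 8 against 8 libraries can give. A gene-level TPM does not separate the deleted exons from the rest. Across all genes, the limma adjusted p of Brd1 was 0.102, and it passed the threshold under 7 alternatives given in the closing section. Brd1 was lower in Brd1+/- mice under the other treatments too, by a log2 difference of -0.45 with vehicle (limma adjusted p = 0.0512) and of -0.49 with FLX (limma adjusted p = 0.0362, where 1.54% of all genes passed). The difference between the IMN and vehicle effects was -0.23 (95% interval -0.54 to 0.08), which was not detectable in limma (adjusted p = 0.681).

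**Figure D1:**
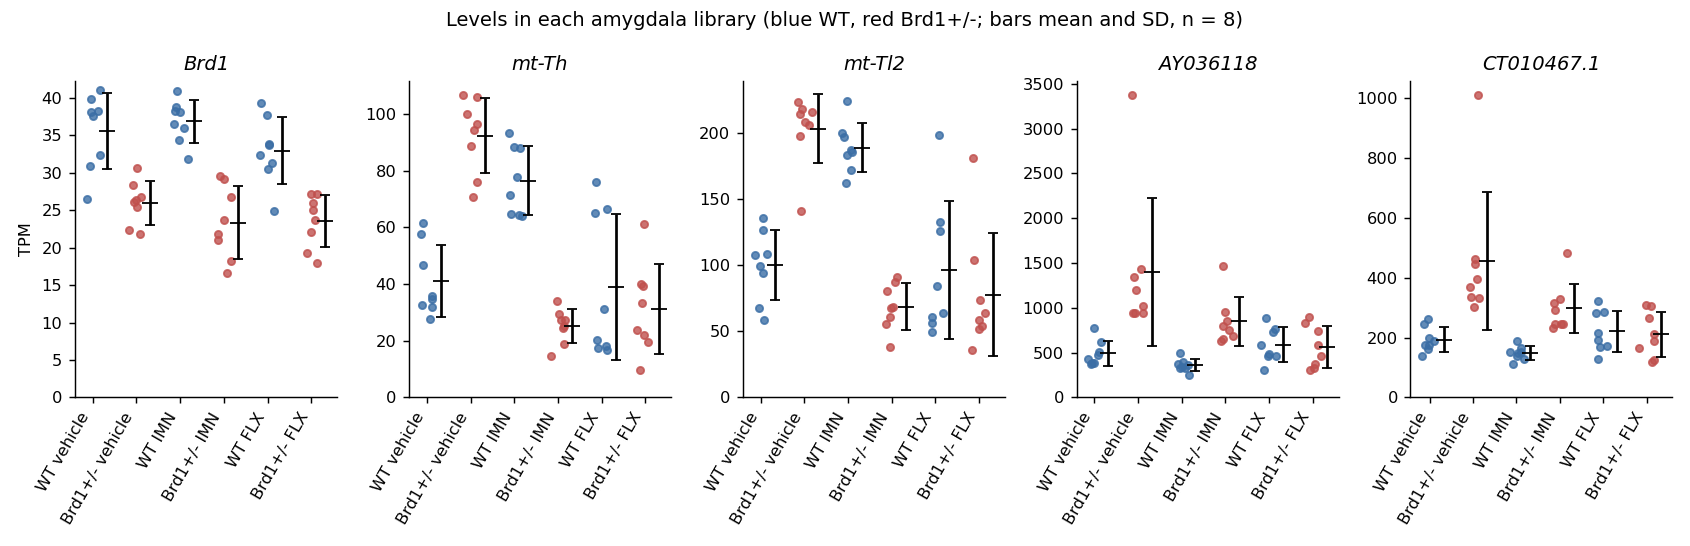
Level in TPM of Brd1 and the 4 genes called in IMN mice, 1 point for each of the 48 libraries, blue for WT and red for Brd1+/-; black bars are mean and SD over 8 libraries. All 5 genes separate the genotypes without overlap in IMN mice, and the order of the genotypes for mt-Th and mt-Tl2 is the opposite in vehicle mice.

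Of 23581 genes tested, 4 passed a limma adjusted p of 0.05 (0.0170%), 2 lower and 2 higher in Brd1+/- mice. The lower genes were mt-Th, the mitochondrial tRNA for histidine, and mt-Tl2, a mitochondrial tRNA for leucine. The higher genes were AY036118 and CT010467.1, overlapping transcripts of a ribosomal RNA repeat on chromosome 17. No multi-exon protein-coding gene passed. At an unadjusted p under 0.05 lay 466 genes higher (1.98%) and 378 genes lower (1.60%), and the median log2 difference of all genes tested was 0.01.

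**Figure D2:**
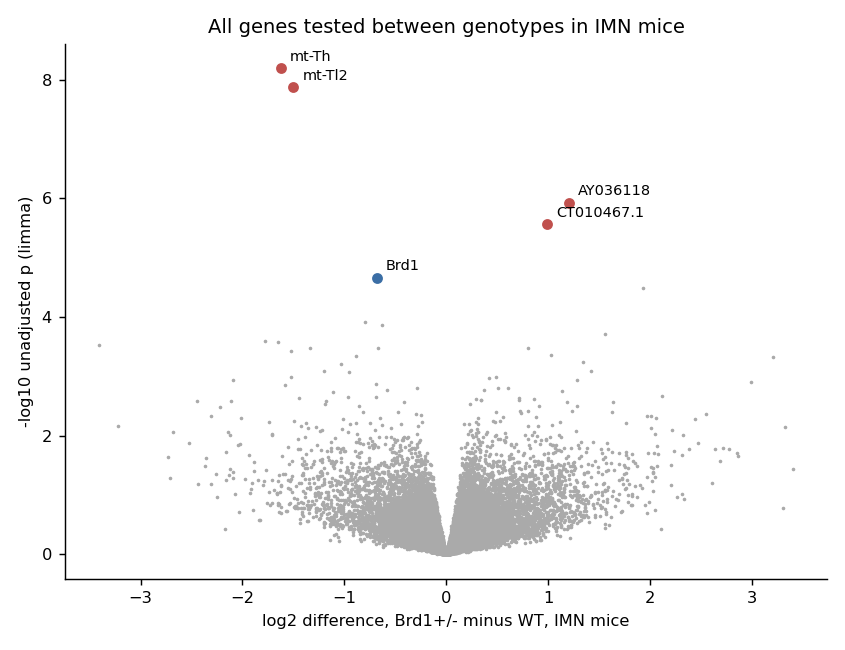
All 23581 genes tested between Brd1+/- and WT IMN mice, with the log2 difference on the x axis and -log10 of the unadjusted limma p on the y axis. Red points are the 4 genes with an adjusted p under 0.05, and the blue point is Brd1, whose adjusted p was 0.102.

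The genes of the 5 mitochondrial tRNAs that lay farthest below WT are printed here to show where they sit and how short they are. All are on the plus strand (GRCm38, sequences from GENCODE M21) between mt-Co3 and mt-Nd5, and the anticodon is in capitals.
mt-Tg, glycine, chrM:9391-9458: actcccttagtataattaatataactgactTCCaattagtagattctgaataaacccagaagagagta
mt-Tr, arginine, chrM:9808-9875: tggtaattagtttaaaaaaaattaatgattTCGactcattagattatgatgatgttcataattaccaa
mt-Th, histidine, chrM:11546-11612: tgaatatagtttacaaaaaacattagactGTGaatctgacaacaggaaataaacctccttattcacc
mt-Ts2, serine, chrM:11613-11671: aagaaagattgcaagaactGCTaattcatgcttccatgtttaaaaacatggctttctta
mt-Tl2, leucine, chrM:11671-11741: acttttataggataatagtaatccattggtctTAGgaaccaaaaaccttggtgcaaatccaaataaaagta

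They are 59 to 71 bases long, mt-Th directly precedes mt-Ts2, and mt-Ts2 and mt-Tl2 share base 11671. A read that crosses such a border can belong to either gene or to an uncut precursor, so the split among them is uncertain. The TPM of these genes does not separate mature tRNA from precursor, so a lower value need not mean less mature tRNA. Levels of genes this short should not be ranked against longer ones.

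The tRNA for histidine, mt-Th, ranged from 63.9 to 93.4 TPM (median 74.5) in WT IMN mice and from 14.8 to 34.0 TPM (median 26.1) in Brd1+/- IMN mice. The groups did not overlap. The means were 76.4 ± 12.1 TPM and 25.1 ± 6.01 TPM (SD, n = 8 each), and mt-Th fell by 1.63 on the log2 scale (95% interval -1.95 to -1.31, limma adjusted p = 0.000151). The leucine tRNA mt-Tl2 ranged from 162 to 224 TPM (median 187) in WT and from 38.2 to 91.3 TPM (median 68.0) in Brd1+/- IMN mice. It too was lower in every Brd1+/- library, and it fell by 1.50 on the log2 scale (95% interval -1.81 to -1.19, limma adjusted p = 0.000156).

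The 3 neighbours lay on the same side without passing. The serine tRNA mt-Ts2 was 5.94 ± 0.698 TPM in WT and 3.82 ± 0.635 TPM in Brd1+/- IMN mice (SD, n = 8 each), again without overlap, with a log2 difference of -0.63 (limma adjusted p = 0.396). The arginine tRNA mt-Tr differed by -0.80 (limma adjusted p = 0.396), with 62.1 to 99.9 TPM in WT and 30.6 to 72.0 TPM in Brd1+/- mice. The glycine tRNA mt-Tg differed by -0.89 (limma adjusted p = 0.585), with 49.4 to 79.3 TPM in WT and 15.9 to 51.6 TPM in Brd1+/- mice. The ranges of mt-Tr and mt-Tg overlapped at their edges.

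Among all 22 mitochondrial tRNAs, 2 passed, both lower (0.00848% of all genes passed as lower). A further 4 had an unadjusted p under 0.05, all lower, 19 of 22 differences were negative, and the median was -0.21. Outside the stretch from mt-Tg to mt-Tl2 the tRNAs differed by -0.38 (mt-Tv and mt-Tm) to 0.15 (mt-Tp). They include the other leucine tRNA, mt-Tl1, with a log2 difference of 3.41e-05. Its level was 744 ± 199 TPM in WT and 761 ± 278 TPM in Brd1+/- IMN mice (SD, n = 8 each). The other serine tRNA, mt-Ts1, differed by -0.15. For the mRNAs between or directly after these tRNAs, all for subunits of complex I, the log2 difference was -0.01 for mt-Nd3, -0.04 for mt-Nd4l, -0.03 for mt-Nd4 and 0.01 for mt-Nd5, which follows mt-Tl2. None of the 13 mitochondrial mRNAs had an unadjusted p under 0.05, their median was -0.01, and the most negative was mt-Atp6, a subunit of ATP synthase, at -0.62 (limma adjusted p = 1.00). The summed level of the mRNAs was 119559 ± 19244 TPM in WT and 119087 ± 31854 TPM in Brd1+/- IMN mice (SD, n = 8 each). The summed level of all tRNAs was 8173 ± 909 TPM and 7531 ± 1452 TPM (SD, n = 8 each), and the ranges overlapped. The rRNAs mt-Rnr1 and mt-Rnr2 differed by -0.17 and -0.14. Of 34 nuclear genes for mitochondrial RNA synthesis and maturation, none passed, and the median was 0.02. The member with the smallest p was 1110008L16Rik, which encodes the nuclease subunit of mitochondrial RNase P that cuts the 5′ ends of tRNAs, at 3.72 ± 0.528 TPM in WT and 4.70 ± 0.414 TPM in Brd1+/- mice (SD, n = 8 each).

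**Figure D3:**
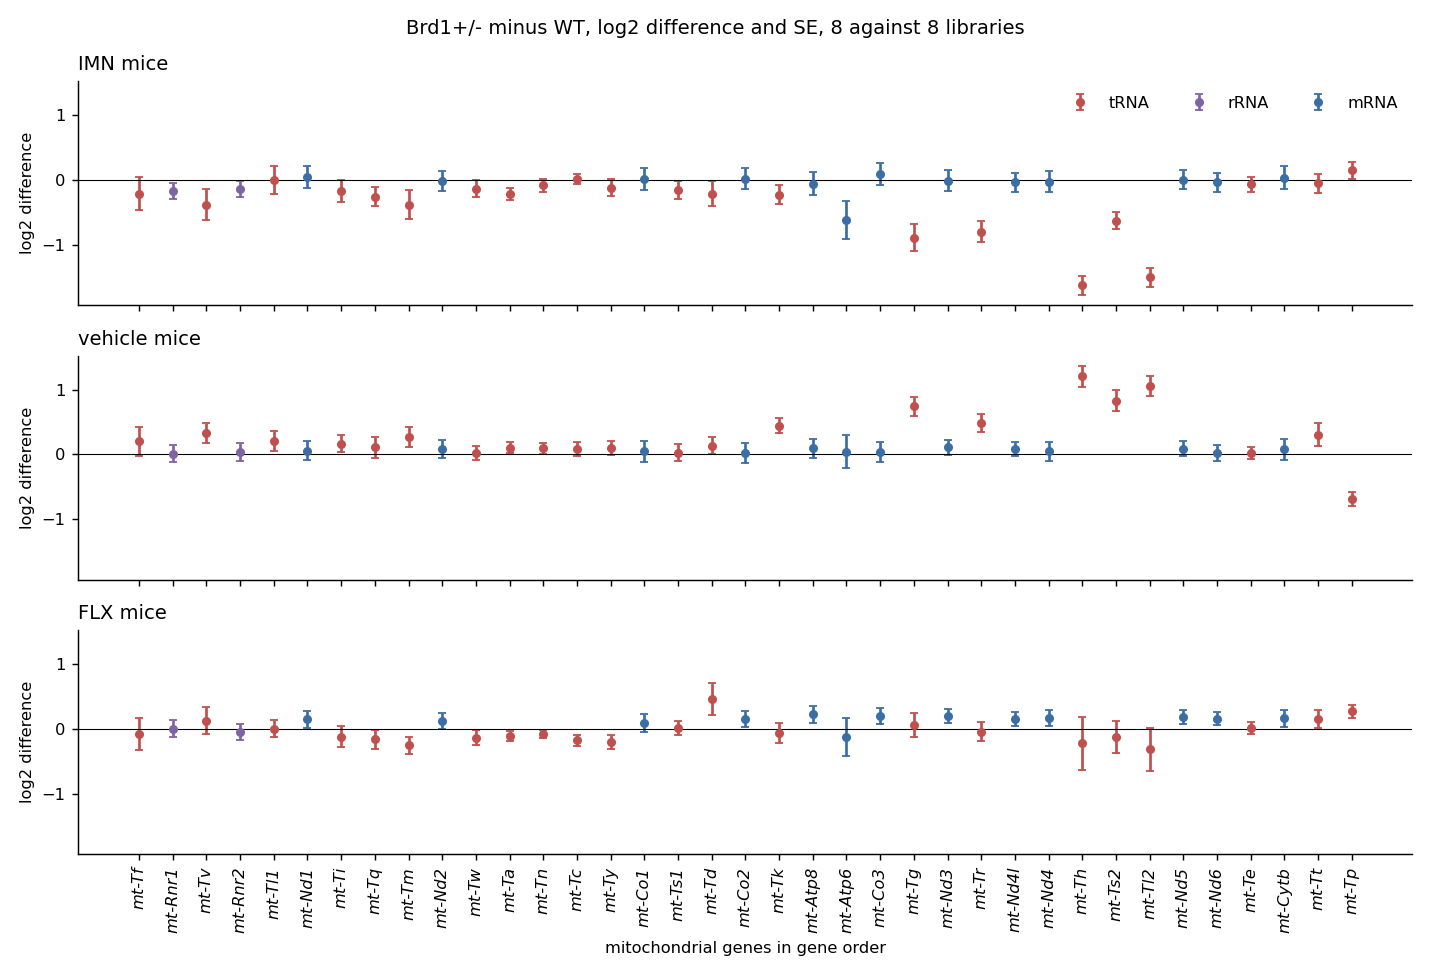
Log2 difference between Brd1+/- and WT for the 37 mitochondrial genes in gene order, in IMN, vehicle and FLX mice; points are limma estimates and bars are SE, from 8 against 8 libraries. In IMN mice mt-Tg, mt-Tr, mt-Th, mt-Ts2 and mt-Tl2 lie between -1.63 and -0.63, and in vehicle mice the same 5 lie between 0.49 and 1.21.

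The vehicle groups, none of whose samples enter the IMN comparison, gave the opposite order for these tRNAs. With vehicle, mt-Th ranged from 27.6 to 61.6 TPM (median 35.2) in WT and from 70.6 to 107 TPM (median 95.4) in Brd1+/- mice. It was thus higher in every Brd1+/- library, by a log2 difference of 1.21 (limma adjusted p = 0.000552), where 0.708% of all genes passed with vehicle. For mt-Tl2 the vehicle difference was 1.06 (limma adjusted p = 0.00182). The difference of the genotype effects, IMN minus vehicle, was -2.84 for mt-Th (95% interval -3.29 to -2.38, limma adjusted p = 1.44e-09) and -2.56 for mt-Tl2 (95% interval -3.01 to -2.11, limma adjusted p = 7.55e-09), where 0.536% of 26673 genes passed this test. The sample codes of the vehicle mice form a range of their own, apart from the codes of the IMN mice, so in the test between treatments the drug and whatever the code blocks stand for cannot be told apart. Within IMN mice the genotypes were not evenly spread over the codes. Under 400 lay 6 Brd1+/- and 4 WT libraries, and from 400 lay 2 Brd1+/- and 4 WT libraries. From 400 every WT code was above both Brd1+/- codes, so genotype and code were partly linked. By level, WT IMN and Brd1+/- vehicle libraries were high, and Brd1+/- IMN and WT vehicle libraries were low.

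The test of the difference also passed for the 3 neighbours, with -1.63 for mt-Tg, -1.29 for mt-Tr and -1.46 for mt-Ts2 (limma adjusted p = 0.000403, 0.000821 and 2.53e-05). Outside this stretch it passed for mt-Tp, the proline tRNA, with the opposite sign (0.84, limma adjusted p = 0.0133): mt-Tp differed by 0.15 between genotypes in IMN mice and by -0.69 in vehicle mice. The remaining 16 tRNAs did not pass. Malat1, a nuclear long noncoding RNA, had the same order of group means as mt-Th in these 4 groups. It ranged from 305 to 513 TPM in WT and from 176 to 335 TPM in Brd1+/- IMN mice, a difference of -0.67 (limma adjusted p = 0.526), against 1.59 in vehicle mice (limma adjusted p = 1.2e-05). The IMN minus vehicle difference of its effects was -2.26 (limma adjusted p = 3.29e-08), and its part in the tRNA result was not tested. In FLX mice mt-Th differed by -0.22 (limma adjusted p = 0.829) and ranged from 16.7 to 76.1 TPM in WT and from 9.75 to 61.0 TPM in Brd1+/- mice, a wider spread within each genotype than in either other treatment. The difference between the IMN and FLX effects on mt-Th was -1.40 (95% interval -2.32 to -0.49), which did not pass across all genes (limma adjusted p = 0.996).

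Of the 4 ribosomal repeat transcripts tested, 3 were higher and 1 (Gm42418) was lower in Brd1+/- IMN mice at an unadjusted p under 0.05. AY036118 (chr17:39847113-39848035, minus strand, GRCm38) ranged from 253 to 493 TPM in WT IMN mice and from 626 to 1466 TPM (median 774) in Brd1+/- IMN mice. No WT library reached the lowest Brd1+/- library, and AY036118 rose by 1.21 on the log2 scale (95% interval 0.86 to 1.55, limma adjusted p = 0.00928). CT010467.1 (chr17:39846353-39848827, minus strand), annotated as an rRNA, ranged from 111 to 188 TPM in WT and from 233 to 481 TPM in Brd1+/- IMN mice, and rose by 0.99 (95% interval 0.69 to 1.29, limma adjusted p = 0.0162).

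These calls are not independent. The whole of AY036118 lies inside CT010467.1 on the same strand, and inside Gm42418 (chr17:39846958-39848788, plus strand) on the other, and whether counting used the strand is not given in the sources used here. Gm42418 itself spanned 23.9 to 65.2 TPM among WT and 3.53 to 105 TPM among Brd1+/- IMN libraries, with a log2 difference of -1.71 (limma adjusted p = 1.00). Weighted by gene length and summed, the 3 overlapping genes came to 575 to 989 TPM x kb in WT and to 1164 to 2548 TPM x kb in Brd1+/- IMN mice. These ranges did not overlap, but the sum contains both called genes and is not a separate result. Gm26917, another repeat transcript, differed by 0.53 (limma adjusted p = 1.00). The median of the 4 repeat transcripts tested was 0.76. Of 28 genes for RNA polymerase I and rRNA processing none had an unadjusted p under 0.05, and their median was 0.02. Among the 6 tested 7SL and other small structural RNAs, Rn7sk, which restrains transcript elongation, differed by 0.89 (limma adjusted p = 1.00).

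With vehicle the repeat transcripts were also higher in Brd1+/- mice, AY036118 by a log2 difference of 1.41 (limma adjusted p = 0.00558) and CT010467.1 by 1.16 (limma adjusted p = 0.00947). The IMN minus vehicle difference of the effects was -0.20 for AY036118 (95% interval -0.81 to 0.41), which did not pass in limma (adjusted p = 0.891). With FLX AY036118 and CT010467.1 differed by -0.10 and -0.09. The 95% interval of the IMN minus FLX difference was 0.65 to 1.95 for AY036118, which did not pass across all genes (limma adjusted p = 0.996).

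**Figure D4:**
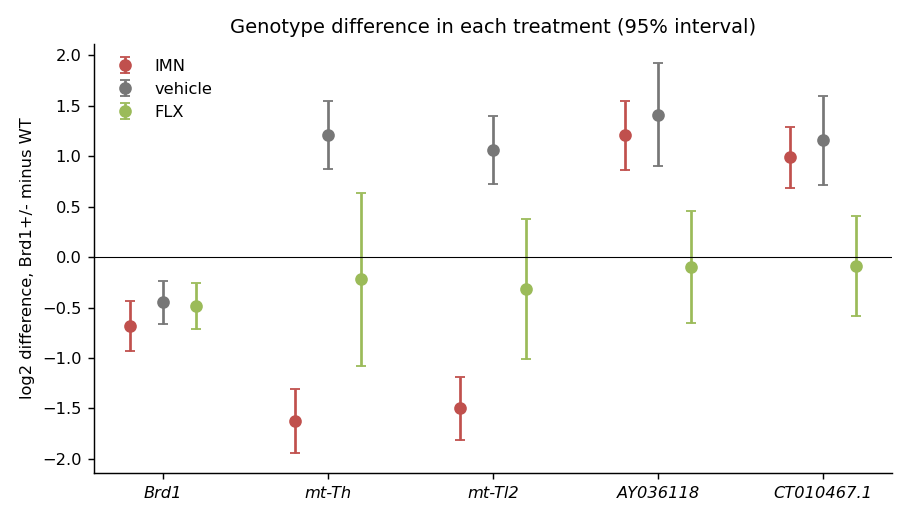
Log2 difference between Brd1+/- and WT with its 95% interval from limma, for Brd1 and the 4 genes called in IMN mice, in each treatment (8 against 8 libraries). Brd1 lies below 0 in all 3 treatments, mt-Th and mt-Tl2 lie on opposite sides of 0 in IMN and vehicle mice, and the repeat transcripts lie above 0 in both.

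A family of short genes annotated as miRNAs, chosen after its values were seen, lay higher in Brd1+/- IMN mice without passing. The sequences are printed to show how alike these genes are, since reads from them can hardly be told apart: Gm24245 (chr4) and Gm24270 (chr9) are identical to Gm23935, and capitals mark substituted bases against it (GRCm38, from GENCODE M21).
Gm23935, chr16:11144125-11144181: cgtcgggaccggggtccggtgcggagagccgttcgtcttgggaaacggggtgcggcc
Gm24187, chr13:9834469-9834525: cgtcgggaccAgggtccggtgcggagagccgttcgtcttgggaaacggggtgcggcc
Gm25911, chr1:167340369-167340424: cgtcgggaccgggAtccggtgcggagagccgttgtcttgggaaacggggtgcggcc

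Gm25911 has 56 bases where the others have 57, and Gm23388, which differs from Gm23935 by 4 edits, did not pass the filter. The 5 tested members differed by 1.19 to 1.56, with unadjusted limma p from 0.000194 to 0.00271 and adjusted p from 0.508 to 1.00. Gm23935 averaged 97.8 ± 27.4 TPM among WT and 299 ± 186 TPM among Brd1+/- IMN libraries (SD, n = 8 each), and its groups overlapped.

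The protein-coding genes with the smallest p did not pass and are given as values. On the higher side, Calb1, a calcium-binding protein of interneurons, lay between 43.5 and 94.6 TPM in WT and between 71.7 and 179 TPM in Brd1+/- IMN mice. Its log2 difference was 0.80 (limma adjusted p = 0.526). Noct, a circadian phosphatase, differed by 0.61, Lgi1, a secreted synaptic protein linked to epilepsy, by 0.51, Cep63, a centrosome protein, by 0.49, and Chka, a choline kinase, by 0.42. Prpf38a, a splicing factor, differed by 0.37, Tagln, a smooth muscle actin-binding protein, by 1.13, and Lrguk by 2.12. All 8 had overlapping groups and limma adjusted p from 0.526 to 1.00.

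On the lower side, Adra1b, the alpha-1B adrenergic receptor, lay between 4.89 and 12.9 TPM in WT and between 1.25 and 6.86 TPM in Brd1+/- IMN mice. Its log2 difference was -1.34 (limma adjusted p = 0.526). Chrna4, a nicotinic receptor subunit, differed by -1.11, Sync by -1.65, Crybb1 by -1.03, and N4bp3 by -0.69. Aplp2, a homologue of the amyloid precursor, differed by -0.28, from 715 ± 50.7 TPM to 589 ± 60.6 TPM (SD, n = 8 each), and D930048N14Rik and Gm28043 differed by -0.95 and -0.82. Outside the rule for named genes, and picked after their values were seen because the groups did not overlap, Map1a, a microtubule-associated protein, differed by -0.24, Ogfr, the opioid growth factor receptor, by 0.24, and the pseudogene Gm17740 by 0.71, each with limma adjusted p = 1.00. In all, 5 genes lay lower without overlap (0.0212%) and 4 higher (0.0170%).

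The lists of pathways gave no further call. Among 12 members of BRD1 acetyltransferase complexes, Kat6b, an acetyltransferase subunit, differed by 0.26, Brd1 was the only member lower at an unadjusted p under 0.05 and Kat6b the only one higher, and the median was 0.09. Among 15 tested imipramine targets none passed, the median was -0.01, and the muscarinic receptor Chrm2 differed by -0.85, beside Adra1b the only other target with an unadjusted p under 0.05. Of the 17 listed targets, the serotonin transporter Slc6a4 was at 0 in all IMN libraries and was not tested. Of 24 other genes of monoamine synthesis, breakdown and reception none had an unadjusted p under 0.05. Immediate-early genes, which neurons induce on activity, were positive in 19 of 22 with a median of 0.22, and none had an unadjusted p under 0.05. Of 20 genes of the unfolded protein response, Ddit3 (-0.18) and Sdf2l1 (-0.50) were below that level. The mineralocorticoid receptor Nr3c2 differed by 0.48 and Cdkn1a by -0.41 among 15 genes of glucocorticoid and CRH signalling, both below that level, where the list's median was 0.09. The AMPA receptor subunit Gria1 differed by 0.35 and was the only one of 18 genes of GABA and glutamate identity below it. The adenylate cyclase Adcy2 differed by -0.48 and was the only one of 26 genes of cAMP and CREB signalling below it, and none of 16 clock genes was. Of 16 tested genes within 500 kb of Brd1, Mapk12, a p38 kinase, differed by -1.13 and was the only one below it, and the median was -0.01.

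**Figure D5:**
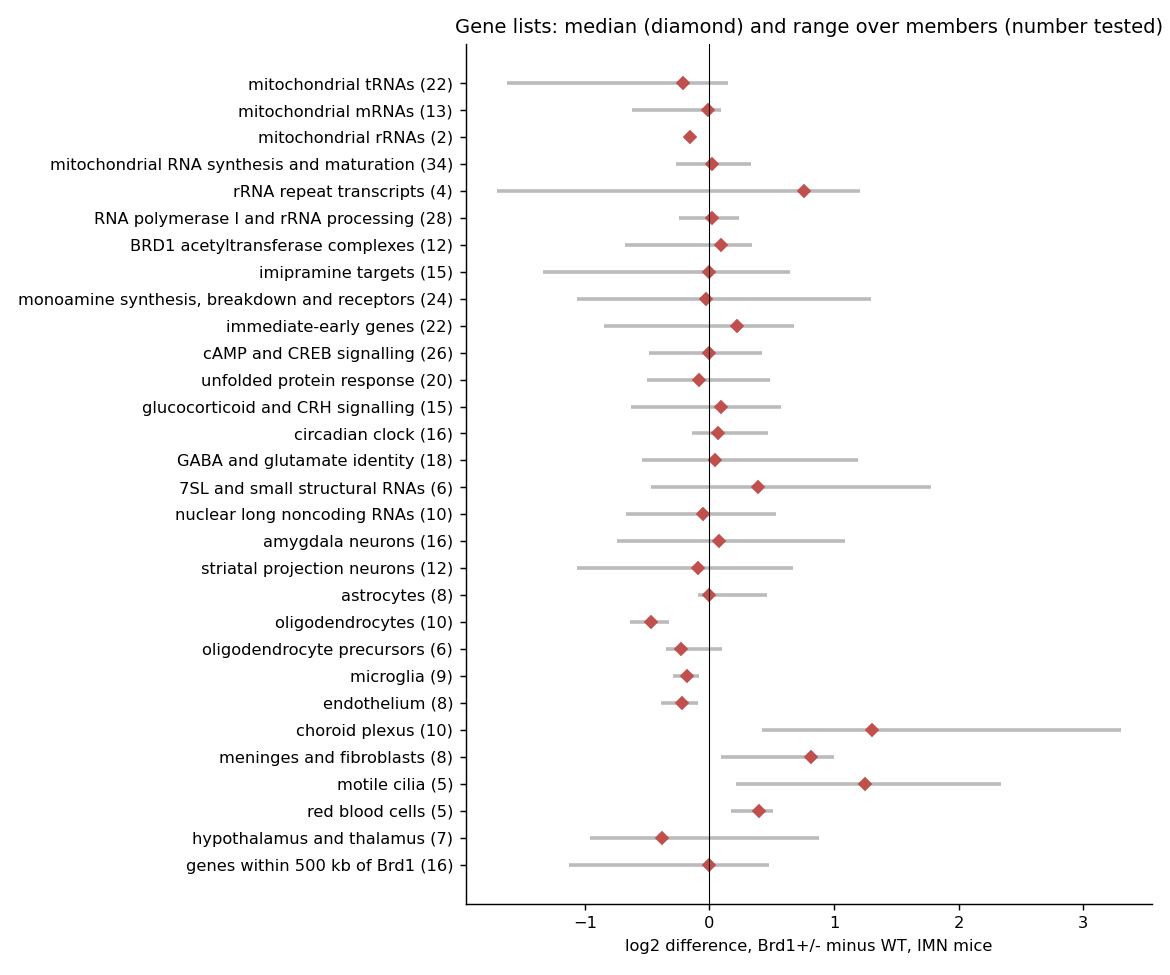
Median (diamond) and full range (line) of the log2 difference, Brd1+/- minus WT in IMN mice, over the tested members of each gene list, with the number tested in brackets. Medians of most lists sit near 0. Choroid plexus, motile cilia and fibroblast markers and the rRNA repeat transcripts lie farthest above it, and oligodendrocyte markers farthest below it.

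Punch content varied, and in tissue RNA fewer cells of a type and less RNA per cell cannot be told apart. All 10 tested choroid plexus markers were positive (median 1.31), and their summed level ranged from 17.8 to 1277 TPM in WT and from 28.7 to 3539 TPM in Brd1+/- IMN mice. Ttr, transthyretin of the choroid plexus, exceeded 100 TPM in WT replicate 1 and in Brd1+/- replicates 1, 3 and 4. Meningeal and fibroblast markers were positive in 8 of 8 (median 0.81), with sums of up to 58.7 TPM in WT and of 31.8 to 164 TPM in Brd1+/- mice. Oligodendrocyte markers were negative in 10 of 10 (median -0.47), with sums of 1480 to 11863 TPM and 1259 to 7332 TPM. The marker sums of amygdala neurons (1305 to 6728 TPM in WT, 1600 to 8252 TPM in Brd1+/- mice) and of striatal projection neurons (176 to 6136 and 183 to 7531 TPM) overlapped widely. Microglial markers were negative in 9 of 9 (median -0.18) and endothelial markers in 8 of 8 (median -0.22). Markers of motile cilia (5 of 5) and of red blood cells (5 of 5) were positive. Markers of hypothalamus and thalamus were negative in 4 of 7 (median -0.38), with sums of 23.2 to 4317 TPM in WT and 18.1 to 540.0 TPM in Brd1+/- mice. Markers of oligodendrocyte precursors were negative in 4 of 6 (median -0.23), and those of astrocytes in 4 of 8. None of these markers passed. Without the 4 libraries rich in Ttr, an alternative chosen after seeing the data, the difference was -1.43 for mt-Th and -1.42 for mt-Tl2 (limma adjusted p = 0.000791 for both). It was 1.36 for AY036118 and 1.16 for CT010467.1, where the call was lost (limma adjusted p = 0.0593 for both). With choroid plexus and oligodendrocyte scores as covariates, also chosen after seeing the data, all 4 calls were kept. The differences were then -1.58 for mt-Th, -1.50 for mt-Tl2, 1.298 for AY036118 and 1.06 for CT010467.1 (limma adjusted p = 0.000101, 6.49e-05, 0.0108 and 0.019).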

How the data were processed

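RNA from amygdala punches was made into TruSeq libraries and sequenced as short single-end reads. Per the labels and the study's methods, the authors trimmed reads (Trimmomatic), aligned them to GRCm38 with HISAT2 2.1.0, and quantified genes with StringTie 1.3.4. The deposited values are TPM for 52636 Ensembl gene IDs, of which 52489 matched GENCODE M21 (GRCm38), used for names and positions. TPM keeps no read depth, so no counting error can be given. The series' design text names other brain regions and another sequencer; the sample labels were followed.

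Genes with at least 0.1 TPM in at least 8 of 16 libraries were tested on log2(TPM + 0.1) with limma 3.58.1 (R 4.3.3, eBayes with trend, Benjamini-Hochberg adjusted p under 0.05), since TPM are not counts. Fits were checked on values simulated for each gene on its own from its mean and SD. That check does not cover the correlation between genes that shared punch content or overlap can bring. Differences of effects used 1 limma fit of the 32 libraries of both treatments, with an interaction term. Brd1 was tested by exact permutation (scipy 1.17.1). Alternatives covered the pseudocount, filter, scaling, sample code range, replicate block and each library left out. Named genes were Brd1, every called gene, 8 multi-exon protein-coding genes per direction with the smallest p and a mean of at least 1 TPM, the mitochondrial tRNAs and up to 4 members of each list; some of these genes are not reported here. The members and lists were chosen with earlier results of these data known. Each replicate has its own sample code in the labels.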

Additional observations from a re-analysis of the deposited data

Results flagged for a closer look

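The genotype difference in IMN mice minus that in vehicle mice was -2.84 for mt-Th and -2.56 for mt-Tl2 on the log2 scale, and both passed limma's test of the difference (adjusted p = 1.44e-09 and 7.55e-09). Every Brd1+/- library lay below every WT library with IMN and above every WT library with vehicle.

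Single libraries stood apart from the other 7 of their group in 41 of 294 groups tested. The measure was Dixon's ratio on TPM, the gap to the next library over the range of the group, with a cut of 0.526. That cut flags about 1 in 20 groups only for normal, independent values. TPM of related genes need not be so, and no excess over chance is read from the count. Brd1+/- IMN replicate 1 was highest of its group for mt-Tt (169 TPM). Brd1+/- IMN replicate 3 was highest of its group for Egr2 (9.03 TPM) and Slc1a1 (121.6 TPM). Brd1+/- IMN replicate 4 was highest of its group for Gfap (675 TPM), Lum (5.69 TPM), Mia (10.9 TPM), Hbb-bt (159 TPM), Hbb-bs (261 TPM) and Hba-a2 (225 TPM). Brd1+/- IMN replicate 5 was highest of its group for Sync (0.996 TPM), Chrna4 (24.5 TPM), mt-Ty (326 TPM), Chrm2 (22.8 TPM), Tcf7l2 (26.4 TPM) and Lhx5 (11.4 TPM). Brd1+/- IMN replicate 6 was highest of its group for AY036118 (1466 TPM) and CT010467.1 (481 TPM). Brd1+/- IMN replicate 7 was highest of its group for Gm42418 (105 TPM). WT IMN replicate 1 was highest of its group for Btg2 (14.3 TPM), Egr2 (8.43 TPM), Lmo3 (197 TPM), Calml4 (4.06 TPM), Kl (13.5 TPM), Kcnj13 (9.65 TPM), Ccdc153 (2.60 TPM) and Mia (4.33 TPM) and lowest for mt-Ta (323 TPM) and mt-Te (1494 TPM). WT IMN replicate 3 was highest of its group for Tmem119 (50.3 TPM), Csf1r (80.5 TPM), Aif1 (22.1 TPM), Cldn5 (38.7 TPM), Tcf7l2 (34.0 TPM) and Panx2 (92.4 TPM). WT IMN replicate 4 was highest of its group for Nr1d2 (99.1 TPM) and Otp (35.4 TPM). WT IMN replicate 5 was highest of its group for Prkcd (164 TPM). WT IMN replicate 6 was highest of its group for Hbb-bt (109 TPM) and Hbb-bs (186 TPM). WT IMN replicate 8 was highest of its group for Htr4 (10.7 TPM) and lowest for Adcy2 (29.9 TPM). 
For AY036118 and CT010467.1 the next highest Brd1+/- libraries had 957 and 329 TPM.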

How the results depend on the processing

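None of the 4 called genes is a multi-exon protein-coding gene, so a fit of that set alone could not keep them. It called 0 genes (432 at an unadjusted p under 0.05). The count of 4 called genes became 2 (mt-Th and mt-Tl2) without the 4 libraries with Ttr above 100 TPM, chosen after seeing the data. It was 3 to 6 when each library was left out, and 4 to 6 under the other alternatives. The Brd1 permutation result kept its direction and p under 0.05 in all 22 alternatives (log2 difference -0.73 to -0.61, the same range when each library was left out).

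In limma, Brd1 passed under median-ratio scaling (adjusted p = 0.00136), quantile normalization (0.000919), TPM rescaled without mitochondrial and rRNA repeat genes (0.0156), 1 fit of all 48 libraries (0.00151), marker scores as covariates (0.00983), and without Brd1+/- replicate 4 (0.0344) or 7 (0.0388). mt-Th and mt-Tl2 passed in all 29 alternatives (adjusted p = 2.68e-05 to 0.0298). AY036118 passed in 28 of 29. CT010467.1 was lost in 5 of 29: in the fit of 48 libraries (adjusted p = 0.0775), without the Ttr libraries (0.0593), and without WT replicate 4 (0.0563), WT replicate 5 (0.0553) or Brd1+/- replicate 8 (0.0575). The causes were not tested. Brd1 in vehicle mice passed in 3 of 7 alternatives added later, and Brd1 in FLX mice in 6 of 7.

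Same-numbered libraries of the groups did not deviate together throughout (correlations -0.262 to 0.358, 4 of 8 over 0.1, and 1 of 8 WT libraries closest to its own number), so the numbers were not taken as pairs. With the replicate block 4 genes were called and the Brd1 difference was -0.68 (exact permutation p = 0.00781). Within sample codes under 400 (6 Brd1+/- and 4 WT libraries) and from 400 (2 and 4) the directions of Brd1 and the 4 called genes did not change. From 400 the codes of the genotypes did not interleave, so this split does not compare genotypes at like codes there. The unknown depth of each library leaves the precision of low values open.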
